A study of Mus musculus with 16 samples.

Results

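The subject is a gene-by-gene difference of differences: the change in RNA when macrophages lacked TRAP1, minus the change when they were labelled as lacking JMJD3. The TRAP1 effect was the log2 ratio of TRAP1 KO TCM over WT TCM, and the JMJD3 effect the log2 ratio of JMJD3 cKO TCM over JMJD3 WT TCM, so that each knockout was set only against the controls of its own set. All autosomal genes that passed a filter on low counts were members, 13714 of the 54532 identifiers in the count tables, and 13 of the 16 libraries entered. A positive difference means that the TRAP1 effect lay above the JMJD3 effect, whether because the first rose or the second fell, so both effects are given beside it.

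The cells were macrophages grown from mouse bone marrow with M-CSF at 20 ng/mL over 7 days, and every library compared here came from cells held for 24 h in medium of which 70% had been conditioned by the mouse melanoma line YUMM1.7 (TCM). The groups were wild type (WT TCM, n = 3), TRAP1 knockout (TRAP1 KO TCM, n = 4), JMJD3 wild type (JMJD3 WT TCM, n = 3) and the conditional knockout of JMJD3 (JMJD3 cKO TCM, n = 3). Wild-type libraries without TCM (n = 3) were not part of the contrast. The driver of the conditional deletion, the strain and the age of the mice are not stated in the labels. Nor is it said whether a replicate was an animal or a culture of its own, and the p-values therefore cover only the spread among these libraries, possibly a technical one.

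TRAP1 is the member of the HSP90 chaperone family that works inside mitochondria, where it folds and restrains enzymes of respiration and the citrate cycle. JMJD3, encoded by Kdm6b, is a nuclear enzyme that takes methyl groups off lysine 27 of histone H3, a mark of silenced genes, and it uses alpha-ketoglutarate, a citrate cycle metabolite, as a cosubstrate. In macrophages, JMJD3 is known for its induction by inflammatory signals and for its part in activation programmes, including alternative activation. A comparison of both knockouts under the same tumor medium therefore sets loss of a mitochondrial chaperone beside loss of a histone demethylase.

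Trap1 itself was at 60.9, 71 and 69.5 CPM (counts relative to library size, scaled by TMM over the 13 libraries) in the 3 WT TCM libraries, against 0.0531, 0.0472, 0.0492 and 0 in the 4 knockout libraries. With 3 counts in the whole knockout group, the level in WT TCM was 1760-fold above it (exact 95% interval of the count ratio 602 to 8540). Kdm6b was at 26.5, 25 and 23.2 CPM in JMJD3 WT TCM and 25.9, 24.2 and 26.1 in JMJD3 cKO TCM, which overlap (JMJD3 effect 0.03, SE 0.08). Whole-gene counts cannot test a partial deletion, so the label of the conditional knockout is neither borne out nor contradicted by its target, and the JMJD3 effect below is that of the libraries labelled JMJD3 cKO. The other target rose in each set. Trap1 rose from 49.2 ± 1.54 CPM (mean ± SD) in JMJD3 WT TCM to 57.1 ± 0.372 with the cKO label (effect 0.21). Kdm6b rose from 11 ± 2.15 to 17 ± 0.37 CPM without TRAP1 (effect 0.62). The difference of Kdm6b was called (0.59, SE 0.12), though not when tested against a fold of 1.5.

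Libraries held 15361604 to 22426820 counts. Mitochondrially encoded genes took 1.25 to 1.28% of the counts in WT TCM and 1.42 to 1.45% in TRAP1 KO TCM, against 0.744 to 0.786% and 0.821 to 0.865% in the JMJD3 controls and the libraries labelled cKO. The line and the sex of the sets cannot be told apart: Xist was at 767 to 907 CPM of total counts in every library of the JMJD3 set and at 1 count or fewer per group in the other, which is why the sex chromosomes were left out. All 7 macrophage markers were tested and summed to 25300 to 25800 CPM in WT TCM and 24100 to 24300 in TRAP1 KO TCM, and to 15600 to 15900 in JMJD3 WT TCM and 12400 to 12700 with the cKO label, with 3 of their differences higher and 3 lower. Dendritic cell markers (4 of 7 tested, none called) summed to 1.33 to 2.46 CPM in the TRAP1 set, and to 10.1 to 11.8 in JMJD3 WT TCM and 5.01 to 6.28 with the label, without overlap. Melanocyte markers summed to at most 0.478 CPM in any library, with Tyr and Tyrp1 at 0 throughout. Erythroid and megakaryocyte markers summed to 576 to 583 CPM in WT TCM and 1020 to 1030 in TRAP1 KO TCM, and to 172 to 193 and 288 to 291 in the JMJD3 set. The part of these other cell types in the results was not tested.

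The effects differed for a large share of the transcriptome. At an adjusted p under 0.05 (edgeR's quasi-likelihood test with Benjamini-Hochberg adjustment over all 13714 genes, used throughout), the difference was called for 5241 genes (38.2%), with the TRAP1 effect higher in 2550 (18.6%) and lower in 2691 (19.6%). For 1008 genes (7.35%) the called difference was at least 2-fold, 470 of them higher (3.43%) and 538 lower (3.92%). The TRAP1 effect by itself was called for 5485 genes (40.0%) and the JMJD3 effect for 4834 (35.2%), with 766 and 314 of them at least 2-fold. Across genes, the median absolute log2 effect was 0.16 and 0.17, and that of the difference was 0.24 with a median SE of 0.12. The effects were nearly unrelated across the 13714 genes, which are not independent replicates (Pearson's r 0.0462, Spearman's rho -0.016), and they share no library. For 7444 genes (54.3%) the whole 95% interval of the difference lay within 1.5-fold in both directions.

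Both effects were called in 2647 genes (19.3% of all tested). They split nearly evenly, with 1303 (49.2%) moving in opposite directions and 1344 in the same direction. All 1303 had a called difference (9.50% of all tested), 600 up without TRAP1 and 703 down. Of the 1344, 537 moved by unequal amounts, and 807 had no called difference, for 730 of which the interval lay within 1.5-fold. The TRAP1 effect alone was called in 1739 of the genes with a called difference (795 up, 944 down), the JMJD3 effect alone in 1394 (686 up, 708 down), and neither effect in 268. The threshold cuts a continuum: Mrps23 lay just inside it (difference -0.18, adjusted p = 0.0499) and Dnajb6 just outside (0.13).

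**Figure D1:**
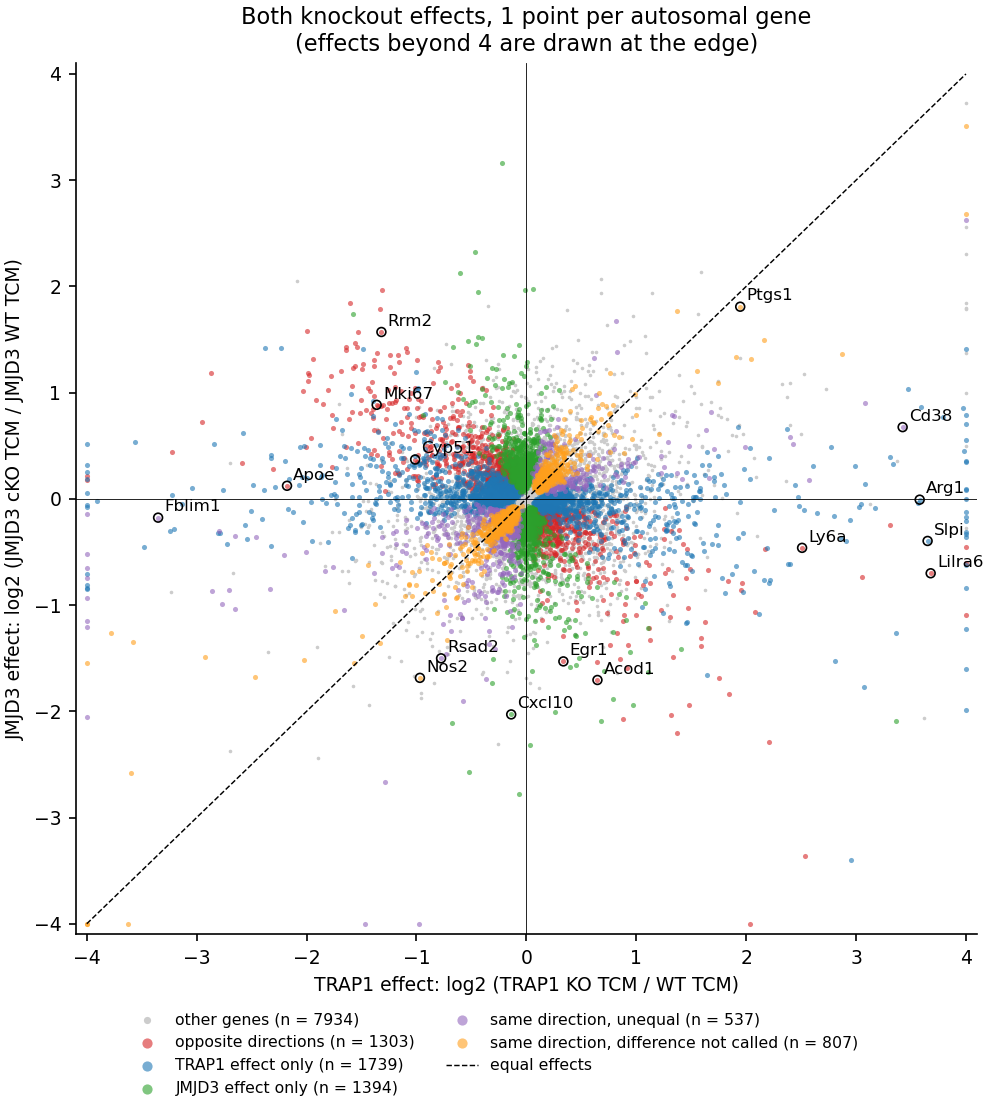
TRAP1 effect (x axis, log2 of TRAP1 KO TCM over WT TCM) against JMJD3 effect (y axis, log2 of JMJD3 cKO TCM over JMJD3 WT TCM) for 13714 autosomal genes, 1 point each, with genes on the dashed line changed equally. The points spread along both axes. The 1303 genes with opposite effects lie above left or below right of the origin. Their median absolute effects were 0.27 (TRAP1) and 0.27 (JMJD3), and in 60 of them both effects were at least 2-fold. The 1344 genes with both effects called in the same direction lie above right or below left of the origin. A few named genes are ringed.

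Genes of dividing cells moved in opposite directions. Of 25 genes of mitosis, all tested, 24 had a lower TRAP1 effect than JMJD3 effect and 0 a higher one, and 23 fell without TRAP1 while rising in JMJD3 cKO TCM. The median TRAP1 effect of the list was -1.39, the median JMJD3 effect 0.89 and the median difference -2.31, where the same medians over all genes tested were 0.00, 0.01 and 0.00. Over all genes tested, 18.6% had a called higher difference and 19.6% a called lower one. These shares stand beside the counts of this and every later list. Fewer dividing cells and less of these RNAs per cell cannot be told apart in bulk samples.

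Mki67, the antigen Ki-67 used to mark proliferating cells, was at 76, 76.9 and 80.0 CPM in WT TCM and 30.3, 30.5, 31.4 and 28.5 in TRAP1 KO TCM. In the other set it was at 18.4, 18.5 and 21.4 CPM in JMJD3 WT TCM and 39.2, 34.6 and 33.9 in JMJD3 cKO TCM. Neither pair of groups overlapped, and the libraries moved down in the first set and up in the second. The log2 difference was -2.25 (SE 0.08, adjusted p = 1.6e-41). Top2a, the topoisomerase that untangles chromosomes, fell from 83.9 ± 1.55 to 31 ± 1.34 CPM without TRAP1 and rose from 17.7 ± 0.36 to 36.5 ± 0.351 in the JMJD3 set (difference -2.48, SE 0.08). Bub1b, a kinase-like protein of the spindle checkpoint, had the widest difference of the list, falling from 17.5 ± 1.33 to 4.24 ± 0.576 CPM and rising from 5 ± 0.267 to 10.1 ± 0.67 (difference -3.05). Ube2c, which conjugates ubiquitin to mitotic proteins, fell by 1.92 on the log2 scale and rose by 0.93.

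The members that did not follow were few. Tpx2, which nucleates spindle microtubules, fell in both sets, from 22.8 ± 1.44 to 11.1 ± 0.346 CPM without TRAP1 and from 77.1 ± 3.37 to 40.8 ± 2.8 with the JMJD3 label (difference -0.12, 95% interval -0.30 to 0.05). It was also the one gene of the list with a higher mean in JMJD3 WT TCM than in WT TCM. Cenpa, the histone of centromeres, fell without TRAP1 (-0.93) and had a JMJD3 effect of 0.15, which was not called.

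Promoters of the mitosis genes carried the letters known from cell cycle genes more often than promoters at large. In RefSeq windows from 250 bases before to 50 after the gene start (GRCm38.p6), searched on both strands with overlaps allowed, TTTGAA, the cell cycle homology region, was found in 16 of 21 windows of the list (76.2%), against 12.1% of 9503 windows of genes tested. CCAAT, the box bound by NF-Y, was in 19 of 21 (90.5%), against 38.8%. For genes of S phase the shares were 13.6% and 63.6%. Promoters of 3 genes follow for 200 bases up to the gene start, to show how both motifs sit in genes whose effects were opposite, with every match to either motif in capitals (ATTGG and TTCAAA are the same motifs read on the other strand). A match describes the letters and is not evidence of binding.
Mki67, chr7:135716380-135716579, minus strand: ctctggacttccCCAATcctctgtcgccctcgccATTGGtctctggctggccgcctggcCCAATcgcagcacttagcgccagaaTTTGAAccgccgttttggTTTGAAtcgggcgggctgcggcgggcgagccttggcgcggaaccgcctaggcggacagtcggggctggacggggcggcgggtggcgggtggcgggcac
Top2a, chr11:99024190-99024389, minus strand: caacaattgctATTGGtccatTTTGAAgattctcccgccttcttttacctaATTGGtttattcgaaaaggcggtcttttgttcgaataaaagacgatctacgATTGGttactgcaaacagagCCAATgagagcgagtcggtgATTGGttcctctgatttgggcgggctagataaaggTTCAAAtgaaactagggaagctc
Cdc20, chr4:118437344-118437543, minus strand: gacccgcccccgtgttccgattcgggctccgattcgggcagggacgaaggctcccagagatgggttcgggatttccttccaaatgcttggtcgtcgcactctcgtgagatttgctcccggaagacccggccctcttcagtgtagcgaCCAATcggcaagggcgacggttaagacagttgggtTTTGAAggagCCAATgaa
The third gene, Cdc20, activates the ligase that ends mitosis, and it fell from 8.15 ± 1.43 to 4.1 ± 0.504 CPM in the first set and rose from 1.81 ± 0.4 to 4.51 ± 0.514 in the second.

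Genes of S phase and DNA replication moved alike but less. Of 27 tested, 24 had a lower and 1 a higher TRAP1 effect, 26 fell without TRAP1 and 17 of these rose in JMJD3 cKO TCM (medians of both effects and the difference -0.48, 0.38 and -0.81). Rrm2, the subunit of ribonucleotide reductase that limits the supply of DNA precursors, was at 24.9, 25.1 and 26.7 CPM in WT TCM, 9.6, 10.5, 9.65 and 11.2 in TRAP1 KO TCM, but 3.74, 2.76 and 3.04 in JMJD3 WT TCM and 9.53, 9.41 and 9.55 in JMJD3 cKO TCM. The 2 control groups stood furthest apart and the 2 knockout groups lay at about the same level (difference -2.89, SE 0.15). Uhrf1, which guides maintenance of DNA methylation, had effects of -0.66 and 0.78, and Rrm1, the partner of Rrm2, -0.43 and 0.43. Pcna, the replication clamp, fell in both sets (-0.90 and -0.32).

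Every cholesterol synthesis gene tested had a lower TRAP1 effect. All 22 fell without TRAP1, 14 rose in JMJD3 cKO TCM and the other 8 had JMJD3 effects from -0.11 to 0.23 that were not called (medians -0.77, 0.19 and -0.97). Cyp51, the sterol demethylase, was at 69.4, 66.5 and 69.7 CPM in WT TCM and 34.5, 32.8, 35 and 33.7 in TRAP1 KO TCM, then 29.4, 24.9 and 29.7 in JMJD3 WT TCM and 38.3, 35.8 and 34.9 in JMJD3 cKO TCM. The TRAP1 knockout sat below every wild-type library of its set, and the libraries labelled JMJD3 cKO sat above all of theirs (difference -1.38, SE 0.08, adjusted p = 2.1e-28). Insig1, which holds the sterol sensor in the endoplasmic reticulum, had effects of -1.01 and 0.21, and Srebf2, the transcription factor of the pathway, -0.54 and 0.16. CCAAT was found in 13 of 15 promoter windows of the list (86.7%), and TCACNCCAC, a form of the sterol regulatory element, in 1 of 15 (6.7%) against 1.1% of all windows.

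Export and storage of lipid followed only in part. Of 15 genes of lipid efflux tested, 8 had a lower and 2 a higher TRAP1 effect, 66.7% against 38.2% of all genes (medians -0.33, -0.17 and -0.13). Apoe, the apolipoprotein that carries cholesterol out of macrophages, fell from 9540 ± 97.6 to 2108 ± 50.9 CPM without TRAP1 and was at 6837 ± 155 and 7447 ± 292 CPM in the JMJD3 set, a slight rise (0.12, difference -2.30). Npc1, which releases cholesterol from lysosomes, fell without TRAP1 (-0.67) with a JMJD3 effect of 0.02 that was not called. Lpl, the lipase that frees fatty acids, fell by 0.22 and rose by 0.54. Abcg1, a cholesterol exporter, fell in both sets by nearly the same amount (-0.53 and -0.60, difference 0.07, 95% interval -0.00 to 0.15).

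Inflammatory genes went the other way, with the TRAP1 effect mostly above the JMJD3 effect. Of 23 genes of classical inflammatory activation tested, 15 had a higher and 5 a lower TRAP1 effect, and 8 rose without TRAP1 while falling with the JMJD3 label (medians 0.48, -0.43 and 0.69). Acod1, which makes itaconate from a citrate cycle intermediate, was at 57.2, 56.7 and 55.2 CPM in WT TCM and 87.8, 85.7, 84 and 96.3 in TRAP1 KO TCM. The JMJD3 WT TCM libraries had 237, 238 and 254 CPM and those of JMJD3 cKO TCM 75, 75.6 and 72.8. These controls stood about 4 times above the other controls, and the 2 knockout groups came to lie side by side (difference 2.35, SE 0.05, adjusted p = 1.3e-54).

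Ccl2, the chemokine that recruits monocytes, rose from 269.7 ± 6.38 to 469 ± 6.32 CPM and fell from 663 ± 26.7 to 410.5 ± 9.33 (difference 1.49). Cd86, a costimulator of T cells, had effects of 0.60 and -0.75, and Il1b, the cytokine interleukin-1 beta, 0.83 and -1.27. Feedback inhibitors of NF-kappaB moved with them: Nfkbia had effects of 0.70 and -0.22, and Tnfaip3 of 0.48 and -0.35. Ccl5, a chemokine for T cells, fell in both sets but more without TRAP1 (-2.00 and -0.50), as did Cd40 (-1.39 and -0.70). Nos2, the inducible nitric oxide synthase, was at 0.85, 0.93 and 1.26 CPM in WT TCM and 0.584, 0.236, 0.443 and 0.801 in TRAP1 KO TCM, far below the 36.3 ± 1.57 and 11.3 ± 0.278 CPM of the JMJD3 set. It fell in both sets (-0.97 and -1.69), and the difference of 0.72 was not called (95% interval 0.08 to 1.35, adjusted p = 0.066), though it was called with genes of at least 50 counts (0.73), without WT TCM replicate 3 (0.88) and without TRAP1 KO TCM replicate 2 (0.97).

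Monocyte-attracting chemokines shared the opposite pattern. Ccl7 rose from 225 ± 1.96 to 468 ± 18.2 CPM without TRAP1 and fell from 706 ± 28.6 to 402 ± 4.73 in the JMJD3 set, and Ccl12 rose from 58.1 ± 2.22 to 144 ± 2.24 and fell from 290.2 ± 18.9 to 135 ± 1.64 (differences 1.87 and 2.42). Ccl8 had the largest difference of the list at 2.79. Ccl2, Ccl7, Ccl8 and Ccl12 are neighbours in 1 chemokine cluster, so they are not separate lines of evidence. Over the 22 chemokines and receptors tested, 11 had a higher and 8 a lower TRAP1 effect, and the lower ones included Cx3cr1, the fractalkine receptor (difference -1.84), and Cxcr4 (-1.09). Ccr2, the receptor for Ccl2, rose without TRAP1 (0.68) with a JMJD3 effect of -0.01 that was not called.

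**Figure D2:**
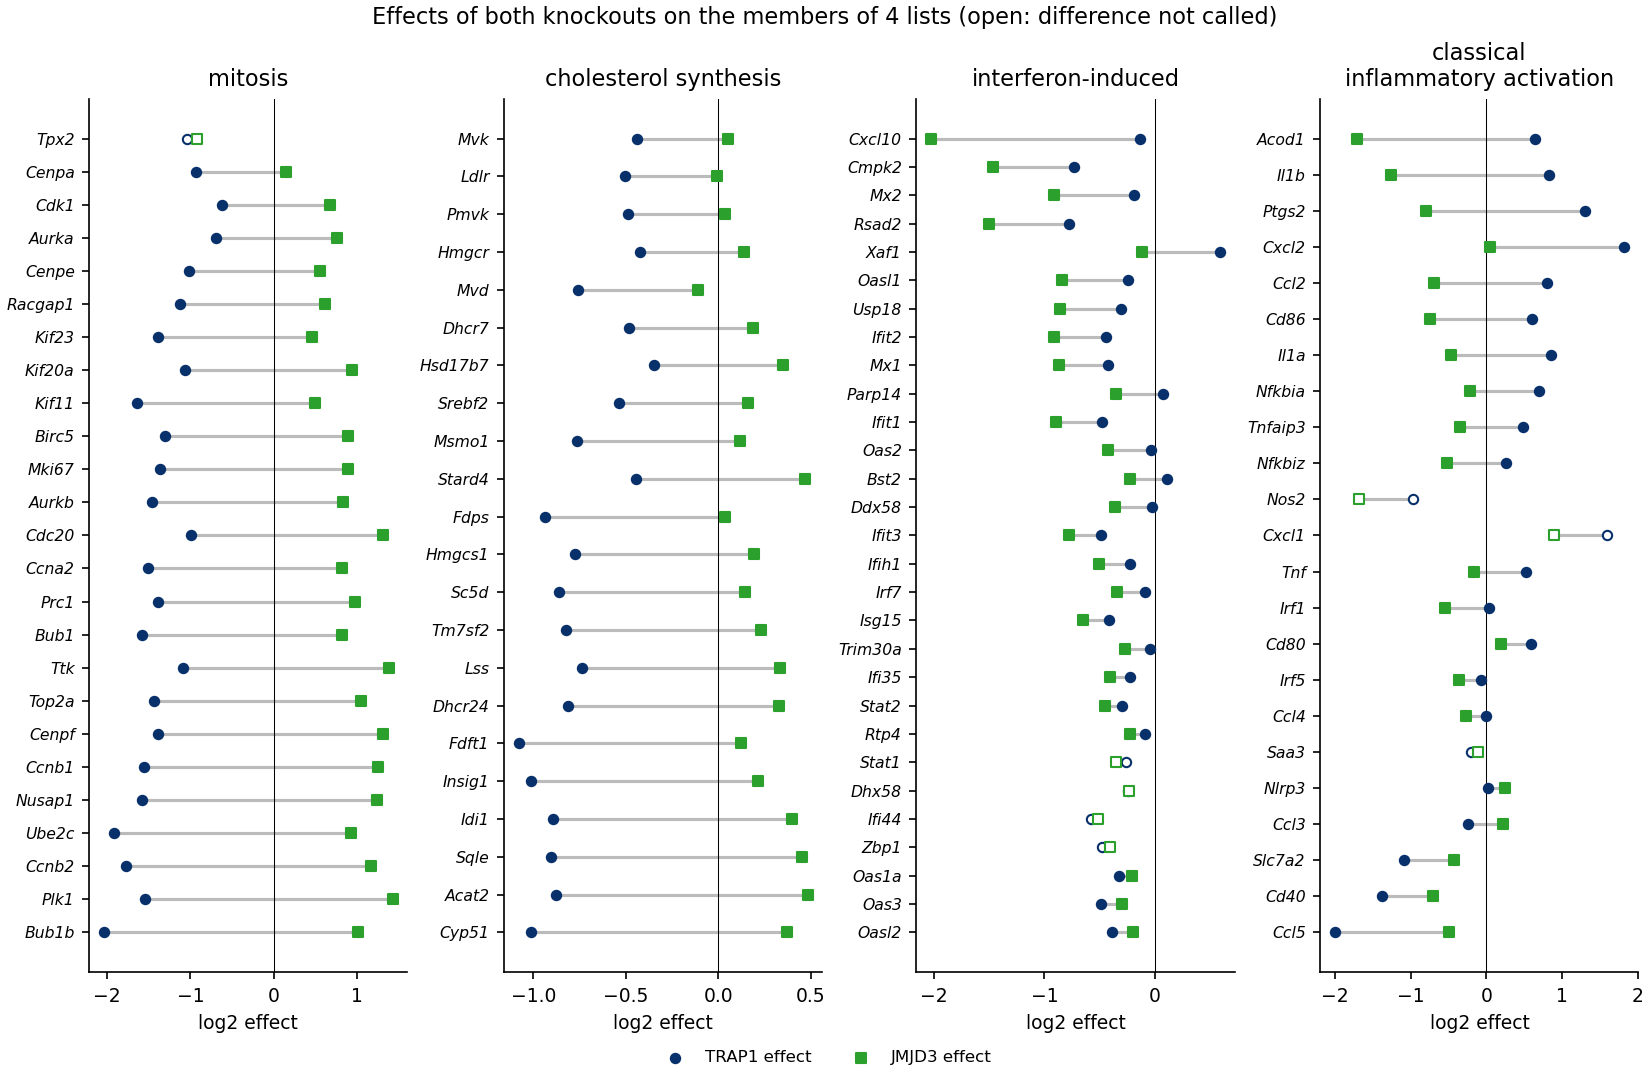
TRAP1 effect (circles) and JMJD3 effect (squares), in log2 units, for each tested member of 4 gene lists, ordered by their difference, with open symbols where the difference was not called. In the mitosis list 24 of 25 members have the circle left of the square by a called difference, in cholesterol synthesis all 22, while most interferon-induced and inflammatory members have the square on the left.

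Among interferon-induced genes both knockouts mostly pointed the same way, with the deeper fall in the libraries labelled JMJD3 cKO. All 29 tested fell there, 22 of them also fell without TRAP1, and 3 (Xaf1, Bst2 and Parp14) rose without TRAP1. The TRAP1 effect was above the JMJD3 effect in 22 and below it in 3, Oasl2, Oas3 and Oas1a, which are related antiviral sensors (medians -0.27, -0.43 and 0.29). Most of these differences are small, and 4 were called when tested against a fold of 1.5. Ifit2, which blocks translation of viral RNA, was at 404, 396 and 404 CPM in WT TCM and 301, 287, 293 and 301 in TRAP1 KO TCM. In the JMJD3 set it was at 3960, 3940 and 4110 CPM in the controls and 2180, 2150 and 2050 in the libraries labelled cKO. No groups overlapped within a set, and the level in JMJD3 WT TCM was about 10 times that in WT TCM (difference 0.47, SE 0.03).

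Cxcl10, a chemokine induced by interferons, had the largest difference of the list. It was at 15.4, 13.7 and 14.4 CPM in WT TCM and 13.5, 11.6, 14.1 and 13.6 in TRAP1 KO TCM, which overlap, against 215, 223 and 247 in JMJD3 WT TCM and 58, 56.9 and 53 in JMJD3 cKO TCM. The fall was called only in the JMJD3 set, and the difference itself was 1.89 (SE 0.09, adjusted p = 1.1e-25). Xaf1, a gene tied to apoptosis, rose from 103 ± 1.77 to 155 ± 3.99 CPM without TRAP1 and fell from 512 ± 21.8 to 473 ± 7.06. Ifit1bl1, a relative of the Ifit genes, fell by nearly equal amounts (-1.34 and -1.36) from very unequal levels of 13.6 ± 1.34 and 1317 ± 55.5 CPM.

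The interferon-stimulated response element, searched on both strands as GAAA and GAAA with any 2 bases between them, was in 12 of 20 promoter windows of the list (60.0%), against 3.4% of the 9503 windows. The promoters of 3 genes are printed for 200 bases up to the start, with each match in capitals (on the other strand the blocks read TTTC). They belong to Rsad2, the antiviral enzyme viperin, to Ifit3 and to Isg15, a ubiquitin-like modifier, all of which fell in both sets.
Rsad2, chr12:26456453-26456652, minus strand: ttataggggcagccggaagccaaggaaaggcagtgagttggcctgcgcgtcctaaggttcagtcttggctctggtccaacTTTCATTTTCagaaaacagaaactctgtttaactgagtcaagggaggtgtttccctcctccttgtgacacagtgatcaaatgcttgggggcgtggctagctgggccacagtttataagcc
Ifit3, chr19:34583329-34583528, plus strand: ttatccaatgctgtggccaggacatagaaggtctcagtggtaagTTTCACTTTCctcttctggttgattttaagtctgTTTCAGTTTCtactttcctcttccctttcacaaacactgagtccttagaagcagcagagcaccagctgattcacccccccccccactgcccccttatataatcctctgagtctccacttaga
Isg15, chr4:156200819-156201018, minus strand: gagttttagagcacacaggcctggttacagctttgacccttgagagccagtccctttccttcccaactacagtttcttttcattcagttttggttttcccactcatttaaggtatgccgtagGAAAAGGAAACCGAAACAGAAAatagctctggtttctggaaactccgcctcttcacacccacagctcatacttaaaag
Their log2 effects without TRAP1 were -0.78, -0.49 and -0.42, and those with the JMJD3 label -1.50, -0.78 and -0.65, in the same order. The 3 matches in the Isg15 window overlap each other.

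Antigen presentation genes had the same share of called differences in both classes (77.8%, against 38.2% of all genes), but the effects behind them differed by class. Of 18 genes of MHC class I and the immunoproteasome tested, 16 fell with the JMJD3 label and 10 without TRAP1, and the TRAP1 effect was higher for 10 and lower for 4 (medians -0.07, -0.25 and 0.11). Tap1, which pumps peptides into the endoplasmic reticulum, fell from 732 ± 20.2 to 540.2 ± 2 CPM in the JMJD3 set and was at 310.3 ± 7.85 and 310.5 ± 3.36 CPM in the other (difference 0.44). H2-Q4 rose by 0.33 and fell by 0.43, and H2-Q6 had effects of 0.05 (not called) and -0.52. Both are members of a family of near-identical class I genes, so reads shared between copies make them uncertain. The members with a lower TRAP1 effect were Erap1, Calr, Pdia3 and B2m, which trim, fold or complete the class I complex.

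Among 9 MHC class II genes tested, 5 had a higher and 2 a lower TRAP1 effect (medians 0.76, 0.08 and 0.67). H2-Eb1, a chain of a class II molecule, was at 9.3, 9.96 and 11.7 CPM in WT TCM and 27.5, 27.2, 27.9 and 25.1 in TRAP1 KO TCM, with 43, 39.3 and 37.6 in JMJD3 WT TCM and 41, 44.2 and 44 in JMJD3 cKO TCM. The first set separated fully, and the groups of the second overlapped (difference 1.28, SE 0.10). Cd74, the invariant chain, rose without TRAP1 (0.85) with a JMJD3 effect of 0.03 that was not called. Ciita, the master activator of the class, rose and fell in the respective sets (1.09 and -0.60) at 0.449 to 4.48 CPM, and it lies 6.4 Mb from Trap1. The peptide loaders H2-DMa and H2-DMb1 were the members with a lower TRAP1 effect (differences -0.38 and -0.31).

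Alternative activation genes did not form a block. Of 14 tested, 8 had a higher and 4 a lower TRAP1 effect, and the members ranged from -3.67 to 3.59 (medians 0.51, 0.06 and 0.41). Arg1 (chromosome 10, 24915221 to 24927484), the arginine-degrading enzyme, was at 1.65, 1.75 and 2.07 CPM in WT TCM and 20.6, 21.8, 21.1 and 23.3 in TRAP1 KO TCM, but at 9.93, 10.6 and 8.1 in JMJD3 WT TCM and 9.16, 10.5 and 8.78 in JMJD3 cKO TCM. It rose only in the set without TRAP1, and the JMJD3 groups overlapped at a level between those of the other set (difference 3.59, SE 0.18, adjusted p = 1.4e-32). Il4ra, through which cells sense interleukin-4, rose from 471 ± 6.02 to 770.4 ± 11.5 CPM and fell from 689 ± 7.43 to 538 ± 7.83 (difference 1.07). Msr1, a scavenger receptor, had effects of 0.80 and -0.16. Mrc1, the mannose receptor, rose in both sets and a little more without TRAP1 (0.50 and 0.28). Chil3, the chitinase-like protein Ym1, fell from 0.527 ± 0.11 to 0.0656 ± 0.0675 CPM and rose from 3.73 ± 0.721 to 6.19 ± 0.693, so this gene of the same list went against Arg1. Irf4, a transcription factor of the programme, was at 2.7, 2.69, 2.2 and 2.4 CPM in the 4 groups and was called in neither set (difference -0.14, 95% interval -0.73 to 0.44).

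Mgl2 and Clec10a, paired galactose-binding lectins of alternatively activated macrophages, lie 0.717 and 0.743 Mb from Kdm6b. Mgl2 was at 3.95, 4.76 and 4.64 CPM in WT TCM and 10.3, 13.7, 11.9 and 13.5 in TRAP1 KO TCM, and at 2.15, 1.93 and 1.71 and 0.471, 0.672 and 0.364 in the JMJD3 controls and libraries labelled cKO. It rose in one set and fell in the other (difference 3.42, SE 0.31). Clec10a rose without TRAP1 (1.54) with a JMJD3 effect of 0.16 that was not called. The genes are close paralogs, and how reads common to both were counted is not known.

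**Figure D3:**
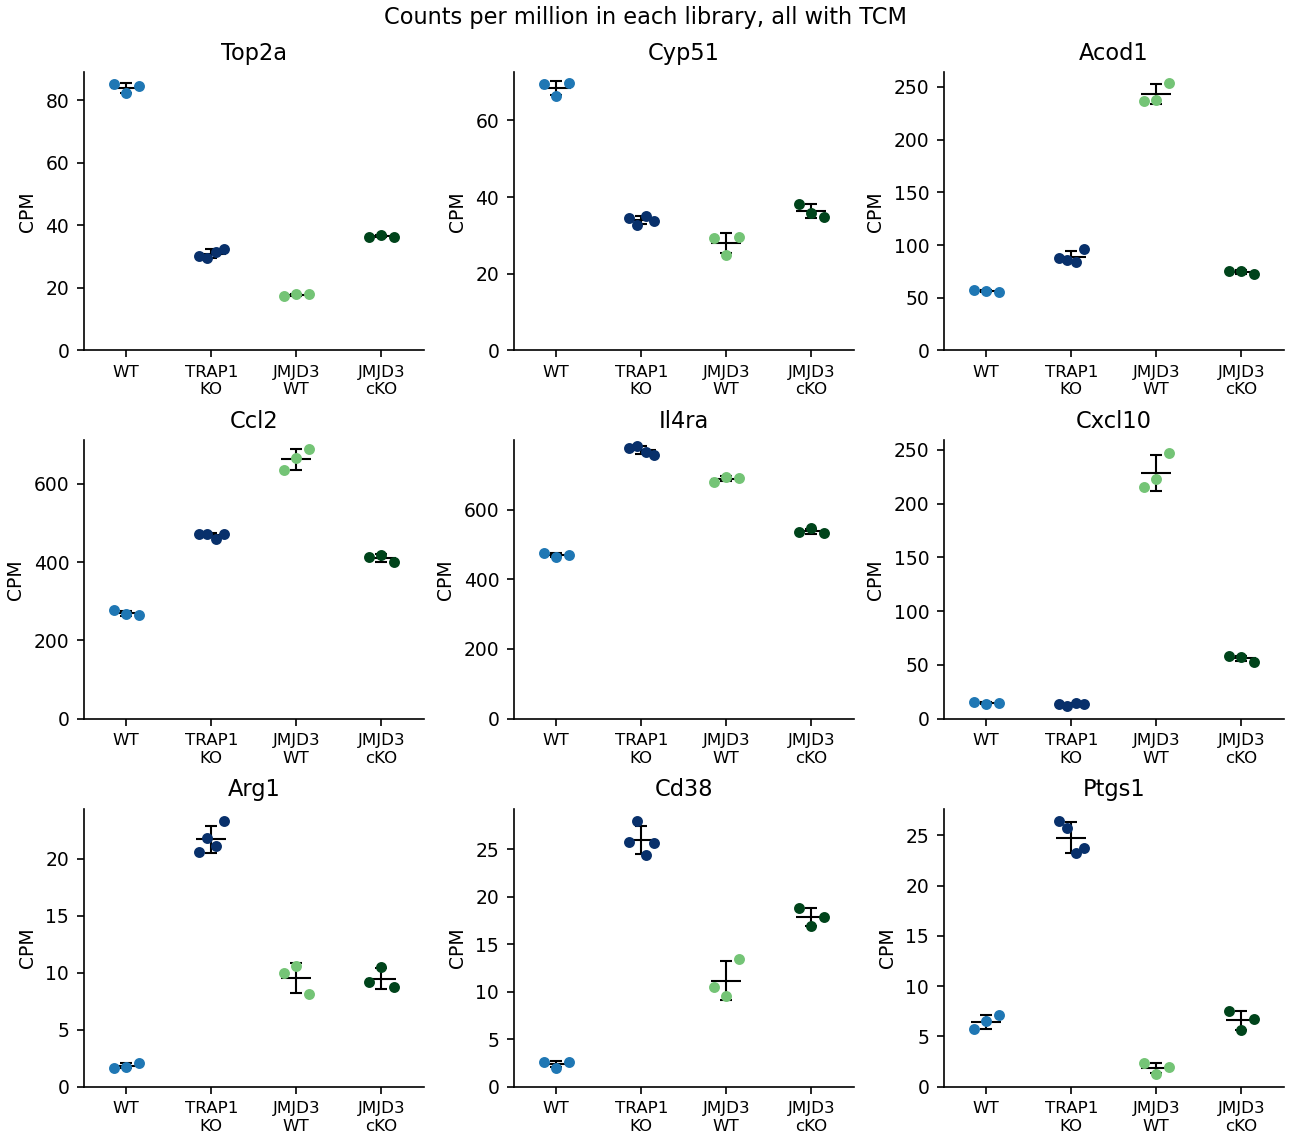
CPM (y axis, linear from 0) of 9 genes in each of the 13 libraries, with 1 point per library, a bar at the group mean and whiskers of 1 SD (n = 4 for TRAP1 KO, n = 3 for the others). Top2a and Cyp51 fell in the first set and rose in the second, Acod1, Ccl2 and Il4ra did the reverse, Cxcl10 fell with the JMJD3 label, Arg1 rose without TRAP1, and Cd38 and Ptgs1 rose in both.

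By size alone, the strongest opposite effects with a mean of at least 5 CPM were these. Lilra6 (chromosome 7, 3908280 to 3915503), a leukocyte receptor, was at 7.3, 6.46 and 6.9 CPM in WT TCM and 101, 77.5, 84.4 and 91.5 in TRAP1 KO TCM, and at 10.1, 9.58 and 9.43 and 6.34, 6 and 5.6 in the JMJD3 controls and libraries labelled cKO. All 4 knockout libraries of the first set lay over 10 times above their controls, and the second set fell (difference 4.38, SE 0.15). Pira2, a paired receptor in the same gene cluster, had effects of 0.88 and -2.08, and reads shared within this family make both uncertain. Hpgd, which inactivates prostaglandins, had effects of 1.75 and -1.69, Ednrb, an endothelin receptor, 2.08 and -1.06, and Ly6a, the surface protein Sca-1, 2.51 and -0.46. In the reverse direction, Padi4, which turns arginine in proteins into citrulline, fell from 9.86 ± 0.179 to 1.04 ± 0.35 CPM and rose from 7.34 ± 1.34 to 9.92 ± 0.145 (difference -3.66). Ppp1r3e, which targets a phosphatase to glycogen, had effects of -2.59 and 0.34. Rpl29, a ribosomal protein gene with processed pseudogenes, had the largest apart from the deleted Trap1 itself (171 ± 5.43 to 0.716 ± 0.138 CPM against 114 ± 4.96 to 128 ± 0.233), and how its shared reads were counted is not known. In 60 genes both opposite effects were at least 2-fold.

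Genes whose TRAP1 effect alone was called were led upward by Slpi, a protease inhibitor (difference 4.05). Slpi rose from 1.96 ± 0.427 to 24.4 ± 1.08 CPM, where the JMJD3 set was at 2.52 ± 0.437 and 1.92 ± 0.408. Its JMJD3 effect of -0.40 (SE 0.20) was not called, which does not show the absence of an effect. Colec12, a scavenger receptor, rose from 18.8 ± 0.0926 to 154 ± 5.22 CPM beside 25.5 ± 2.66 and 24.2 ± 1.19 (difference 3.10), and Sorbs3, an adaptor of cell adhesions, had effects of 2.25 and -0.10. Eif3j2 rose as well (2.64) but has a near-identical copy, Eif3j1, and is uncertain. Downward, Cyp4f18, a fatty acid hydroxylase, was at 8.65, 8.59 and 6.84 CPM in WT TCM and 0.318, 0.614, 0.541 and 0.374 in TRAP1 KO TCM, with 10.2 ± 1.17 and 10.5 ± 0.877 CPM in the JMJD3 set. The knockout libraries lay over 10 times below their controls, while the JMJD3 effect of 0.05 was not called (difference -4.14, SE 0.23). Azin2, which inhibits antizyme in polyamine synthesis, had a difference of -2.31, and Enpp6 and Ankdd1a of -1.94 and -2.20. The JMJD3 effect of Azin2 was -0.25 (SE 0.11) and was not called, though its JMJD3 groups did not overlap. Tgfbr2, a receptor chain for TGF-beta, rose from 395 ± 4.54 to 1128 ± 13.3 CPM beside 304 ± 3.65 and 308 ± 6.57 (difference 1.49).

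Genes whose JMJD3 effect alone was called were led downward by Lhx2, a homeodomain factor. It was at 21.6, 22.7 and 23.9 CPM in JMJD3 WT TCM and 3.25, 3.51 and 4.64 in JMJD3 cKO TCM. In the other set it lay at 0.241 ± 0.114 and 0.167 ± 0.0717 CPM, near the limit of detection, so its TRAP1 effect is poorly measured (difference 2.04, SE 0.60). Mxd1, which opposes Myc, fell from 219 ± 15.2 to 71.2 ± 2.01 CPM, where the other set was at 20.6 ± 0.449 and 21.4 ± 1.03 (difference 1.68). Mmp25, a membrane-bound protease, and Sectm1a, a ligand of T cells, had differences of 1.98 and 1.58, the second not called without TRAP1 KO TCM replicate 3 (1.24, adjusted p = 0.0767). Upward, Lyz1, a lysozyme gene, rose from 2.94 ± 0.0925 to 11.5 ± 1.18 CPM beside 7.72 ± 0.903 and 7.69 ± 0.693, but its paralog Lyz2 is abundant in macrophages and shared reads make it uncertain. S100a9, a calgranulin chain, rose from 6.92 ± 0.928 to 13 ± 0.176 CPM together with the summed neutrophil and precursor markers, which include it. They summed to 21.2 to 24.8 CPM in its controls, 39 to 40.6 in the libraries labelled cKO and 3.79 to 5.53 in the other set. The part of neutrophils in that rise was not tested. F7, coagulation factor VII, Mettl1, a tRNA methyltransferase, and Trim36 rose too (0.65, 0.86 and 0.69).

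Some genes responded to both knockouts in the same direction but unequally. Cd38, which consumes NAD, was at 2.65, 2.02 and 2.57 CPM in WT TCM and 25.8, 28, 24.4 and 25.7 in TRAP1 KO TCM, then 10.5, 9.51 and 13.5 in JMJD3 WT TCM and 18.8, 16.9 and 17.9 in JMJD3 cKO TCM. It rose in both sets, and by 2.75 more on the log2 scale without TRAP1 (SE 0.16, adjusted p = 6.3e-28). Pdpn, the glycoprotein podoplanin, and Plxdc2, a plexin-domain protein, rose by 2.43 and 2.40 without TRAP1 and by 0.51 and 0.58 with the JMJD3 label. Ighm, the heavy chain of IgM, rose from 3.78 ± 0.259 to 15 ± 1.25 CPM in the first set, where the summed B cell markers, which include it, went from 6.59 to 8.7 up to 17.7 to 20 CPM, and the part of B cells in it was not tested. Fblim1, an adaptor between adhesions and actin, fell from 158 ± 6.85 to 15.5 ± 0.745 CPM without TRAP1 and from 286 ± 6.91 to 253 ± 3.72 with the label (difference -3.17). Slc13a3, a dicarboxylate transporter that carries citrate cycle intermediates, had effects of -5.11 and -0.65. Trav13-4-dv7, a T cell receptor segment, had 178 counts in WT TCM and 0 in TRAP1 KO TCM, which puts the knockout at least 86.6-fold lower (limit of 3 counts for the whole group). The summed T and NK cell markers were at 28.2 to 29.8 CPM in WT TCM and 17.8 to 20.1 in TRAP1 KO TCM, and the part of those cells was not tested. Nlrp1a, an inflammasome sensor 1.68 Mb from Kdm6b, had 3 counts in JMJD3 cKO TCM against 237 in JMJD3 WT TCM (ratio of levels 102, exact 95% interval 34.6 to 500) and fell by 0.98 without TRAP1.

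Other genes moved in the same direction in both sets with no called difference, which is not proof of equal effects. Ptgs1, the constitutive cyclooxygenase, was at 5.75, 6.51 and 7.09 CPM in WT TCM and 26.4, 25.7, 23.2 and 23.7 in TRAP1 KO TCM, and at 2.33, 1.31 and 1.96 and 7.54, 5.63 and 6.69 in the JMJD3 controls and libraries labelled cKO. Both sets rose by over 3-fold, and the difference of 0.14 had a 95% interval of -0.28 to 0.56. Trem1, an amplifier of myeloid inflammation, rose by 1.91 and 1.33, with a wide interval of the difference (-0.28 to 1.44). Tnfsf14, the ligand LIGHT, and Igfbp4, which binds insulin-like growth factors, rose by 0.75 and 0.68 without TRAP1 and by 0.80 and 0.75 with the label. Lipg, an endothelial lipase gene, fell from 144 ± 5.83 to 24 ± 0.435 CPM in the JMJD3 set, while in the other it went from 29 to 3 counts (ratio 14.1, exact 95% interval 4.37 to 72.3). Its difference of -1.02 had a wide 95% interval of -2.155 to 0.124.

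Enzymes of the citrate cycle and of alpha-ketoglutarate, the cosubstrate of JMJD3, shifted by small amounts in a common direction. Of 25 tested, 17 had a lower and 1 a higher TRAP1 effect, 9 fell without TRAP1 while rising with the JMJD3 label, and 20 rose with the label in all (medians -0.11, 0.14 and -0.32). Tested against a fold of 1.5, 1 lower difference was called. Psat1, which forms alpha-ketoglutarate during serine synthesis, was at 23.1, 23.8 and 23 CPM in WT TCM and 12.6, 13.1, 12.9 and 14.3 in TRAP1 KO TCM, with 9.99, 9.92 and 10.6 in JMJD3 WT TCM and 16.5, 15 and 17.9 in JMJD3 cKO TCM. It fell without overlap in the first set and rose in the second (difference -1.52, SE 0.12). Idh3b, a subunit of the mitochondrial isocitrate dehydrogenase, and Mdh1, the cytosolic malate dehydrogenase, had differences of -0.45 and -0.44. Glud1, which makes alpha-ketoglutarate from glutamate, was the member with a higher TRAP1 effect (0.30 and 0.11).

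Of 31 respiratory chain genes encoded in the nucleus, 9 (29%) had a lower TRAP1 effect, against 19.6% of all genes. A higher one was called for 0, against 18.6% (medians -0.01, 0.08 and -0.09). Atp5b, the catalytic subunit of ATP synthase, rose from 463 ± 0.74 to 529 ± 14.9 CPM with the JMJD3 label and was at 607 ± 3.47 and 598 ± 9.61 in the other set. Of 17 genes of the HSP90 family and of mitochondrial chaperones and proteases, 8 had a lower and 2 a higher TRAP1 effect, and 9 rose with the JMJD3 label. The called share was 58.8%, against 38.2% of all genes. Against a fold of 1.5, 0 differences were called in either list. Hspd1, the chaperonin of the mitochondrial matrix, rose from 66.3 ± 5.16 to 91.8 ± 4.29 CPM there, with a TRAP1 effect of -0.04 that was not called. Hsp90ab1, the constitutive cytosolic relative of TRAP1, had effects of -0.08 and 0.25, and Hsp90b1, the relative in the endoplasmic reticulum, -0.27 and 0.05 (not called).

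Glycolysis and hypoxia genes had more higher than lower differences, mainly through falls with the JMJD3 label. In glycolysis 11 of 19 were higher and 2 lower (medians 0.00, -0.11 and 0.13), and in the hypoxia response 9 of 15 were higher and 2 lower (medians 0.00, -0.29 and 0.26). Tested against a fold of 1.5, 0 of the glycolysis genes and 2 of the hypoxia genes were called higher. Slc2a1, the glucose transporter GLUT1, rose from 56.2 ± 2.4 to 74.9 ± 2.17 CPM and fell from 68.7 ± 3.43 to 56.3 ± 1.03. Slc16a3, the lactate exporter, had effects of 0.16 and -0.43, and Pfkfb3, which makes an activator of the pathway, 0.22 and -0.42. Egln3, an oxygen-sensing prolyl hydroxylase, had a difference of 2.14 at levels of 0.87 to 9.73 CPM, and P4ha2, a collagen prolyl hydroxylase, of 1.38. Vegfa, the angiogenic growth factor, fell in both sets and more with the label (-0.24 and -0.50).

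**Figure D4:**
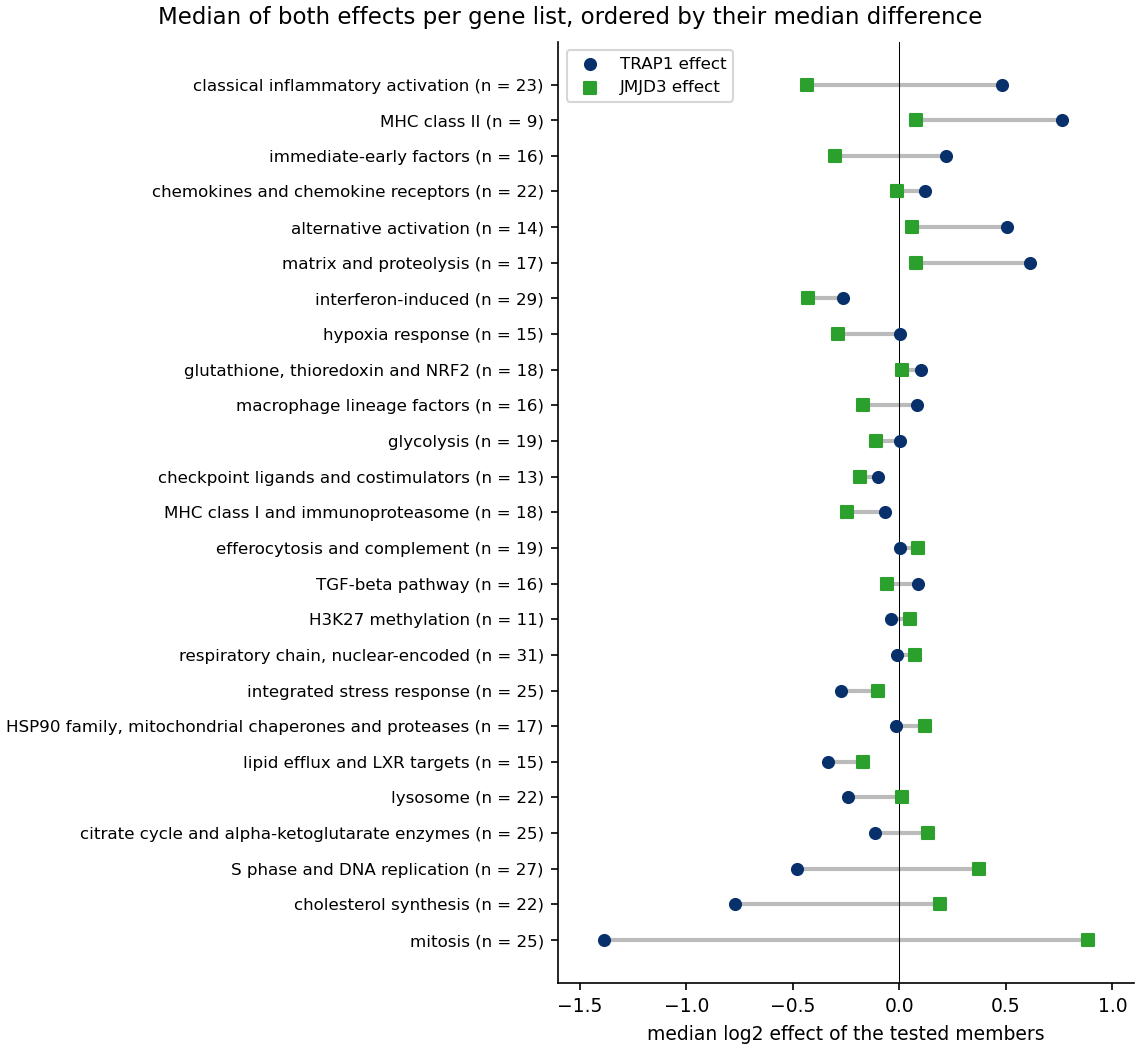
Median TRAP1 effect (circles) and median JMJD3 effect (squares) of the tested members of 25 gene lists, in log2 units on the x axis, ordered by their median difference. Mitosis has the widest gap, from -1.39 to 0.89, and the lists of inflammation and of immediate-early factors have their medians on opposite sides of 0 in the reverse order.

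Among genes of H3K27 methylation, the mark JMJD3 removes, 3 of 11 had a lower and 2 a higher TRAP1 effect, 45.5% against 38.2% of all genes and so near the background (medians -0.04, 0.05 and 0.02). Ezh2, the methyltransferase, fell from 19.2 ± 0.853 to 12.6 ± 1.33 CPM and rose from 10.7 ± 0.731 to 13.4 ± 0.995, and its partner Phf19 had effects of -0.67 and 0.76. Jarid2, another cofactor of that complex, did the reverse (0.89 and -0.39). Transcription factors of the immediate-early response had 11 of 16 higher and 1 lower (medians 0.22, -0.30 and 0.53). Fosl2, a partner of Jun, rose from 54.4 ± 1.73 to 86.5 ± 4.26 CPM and fell from 63.6 ± 3.35 to 49.6 ± 1.01, while Junb and Klf6 rose slightly without TRAP1 (0.07 and 0.09) and fell with the label (-0.47 and -0.44). Egr2 was the member with a lower TRAP1 effect (difference -1.25). Of 16 macrophage lineage factors, 10 were higher and 3, Bhlhe40, Bhlhe41 and Cebpa, lower, with 0 higher against a fold of 1.5. Zeb2, which keeps tissue macrophages in their identity, had effects of 0.20 and -0.23, and Cebpa -0.27 and 0.23.

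Lysosomal genes had a lower TRAP1 effect in 18 of 22 cases, with 1 higher (medians -0.24, 0.01 and -0.21), though 2 of the lower ones were called against a fold of 1.5. Atp6v0d2, a subunit of the proton pump, was at 70.3, 69.8 and 66.7 CPM in WT TCM and 29.1, 32.9, 33.4 and 34.3 in TRAP1 KO TCM, with 80.4, 75.4 and 76.2 in JMJD3 WT TCM and 131, 133 and 131 in JMJD3 cKO TCM. It started at similar levels in both control groups and moved apart (difference -1.86, SE 0.06). Gpnmb, a glycoprotein of lipid-laden macrophages, had effects of -0.62 and 0.26, and Ctss, a protease that trims the invariant chain, -0.57 and 0.04 (not called).

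Efferocytosis and complement genes had 10 of 19 higher and 7 lower, 89.5% against 38.2% of all genes (medians 0.01, 0.09 and 0.10). Mfge8, which bridges phagocytes to dying cells, fell from 60.6 ± 0.754 to 25.1 ± 1.96 CPM and rose from 64.5 ± 4.24 to 116 ± 0.746 (difference -2.12). C3, the central complement component, fell from 1315 ± 28 to 881 ± 5.37 CPM with the label and rose slightly without TRAP1 (0.07), and C5ar1, a complement receptor, had effects of -0.34 and 0.20. Matrix and protease genes were higher in 12 of 17 and lower in 2 (medians 0.61, 0.08 and 0.33). Mmp12, the macrophage elastase, fell from 193 ± 1.73 to 135 ± 6.9 CPM and rose from 162 ± 8.65 to 358 ± 6.24, while Mmp14, a membrane-bound collagenase, did the reverse, with effects of 0.89 and -0.99. F13a1, a clotting transglutaminase of macrophages, rose without TRAP1 (1.17). Fibroblast markers summed to 0.377 to 0.547 CPM in WT TCM and 5.47 to 7.43 in TRAP1 KO TCM, and to 0.735 to 2.02 in the JMJD3 set, and the part of stromal cells in these values was not tested.

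In the TGF-beta pathway 6 of 16 genes were higher and 2 lower, 50% against 38.2% of all genes. Its receptor chains split: Tgfbr1 fell without TRAP1 and rose with the label (-0.49 and 0.39), against the rise of Tgfbr2. Tgfbi, a matrix protein induced by TGF-beta, fell in both (-0.75 and -0.28). Of 13 checkpoint ligands and costimulators 7 were higher and 3 lower, 76.9% against 38.2% of all genes. The higher ones were 4 without WT TCM replicate 2 or replicate 3, and 3 without JMJD3 WT TCM replicate 3. Cd274, which encodes the T cell inhibitor PD-L1, fell from 48.3 ± 1.43 to 40.5 ± 1.15 CPM without TRAP1 and from 565 ± 13.9 to 308 ± 4.32 with the label (difference 0.62), and Havcr2, the receptor TIM-3, fell and rose (-0.86 and 0.42). In the integrated stress response 11 of 25 were lower and 7 higher, 72% against 38.2% of all genes. Mthfd2, an enzyme of mitochondrial folate metabolism, was lower (difference -0.59) and Slc3a2, an amino acid transporter chain, higher (0.60). Glutathione, thioredoxin and NRF2 genes had 10 of 18 higher (0 against a fold of 1.5) and 2 lower, among them by their differences Nfe2l2, NRF2 itself (0.34), its inhibitor Keap1 (0.32) and Fth1, ferritin heavy chain (-0.65). Il10, the anti-inflammatory cytokine, fell with the label (-0.91) and had a TRAP1 effect of -0.20 that was not called (difference 0.71).

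Genes with a called difference of at least 2-fold were spread over all autosomes, from 4.66% of the genes tested on chromosome 12 to 13% on chromosome 14. Among 267 windows of 5 Mb with at least 20 genes tested the median share was 6.25%. The highest shares, 10 of 32, 18 of 60 and 15 of 54 genes, were in windows starting at 190 Mb of chromosome 1, 50 Mb of chromosome 14 and 0 Mb of chromosome 7. Among the genes of these 3 windows with a called difference of at least 2-fold, the JMJD3 effect alone was called for 0. Over all autosomes this held for 114 of the 1008 such genes, and whether the windows depart from that share was not tested. The third holds Lilra6 and Pira2, and the second Mmp14, Ppp1r3e and Trav13-4-dv7. Within 10 Mb of Trap1 9 of 75 genes passed (12%), and within 10 Mb of Kdm6b 13 of 285 (4.56%), against 7.35% of all.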

How the data were processed

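Bulk RNA was sequenced from 16 libraries, of which 13 entered. Per the labels' protocols, Ribo-Zero depleted RNA was made into TruSeq Stranded libraries for HiSeq sequencing. RSEM, Bowtie2, StringTie, HISAT and the build mm10 appear in the submitters' processing notes without roles, so the counting tool, strand setting and annotation release are not known here. Raw counts were deposited by the authors as 1 table per library, whole numbers for 54532 Ensembl identifiers, used as deposited. GENCODE M21 (GRCm38, also called mm10) named 54495 of them. Because neither strand nor the handling of shared reads is known, overlapping, antisense and near-identical genes are uncertain.

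Counts were scaled by TMM and tested with edgeR (4.0.16, R 4.3.3): filterByExpr at a minimum of 10 counts, 1 robust quasi-likelihood fit of 4 groups (9 residual degrees of freedom), 3 contrasts (both effects and their difference), and Benjamini-Hochberg adjustment over 13714 autosomal genes, with 36474 autosomal identifiers filtered out. The threshold for a call was an adjusted p under 0.05, and an at least 2-fold difference is an absolute log2 value of at least 1. Lists are described by counts and medians beside all genes tested, with no set test. In simulated counts for 13401 genes, 200 were changed in 1 set and 200 alike in both sets. All of these were drawn from genes averaging at least 50 counts. The fit found 96% of 2-fold and 73% of 1.41-fold differences, called 0% of genes changed alike in both sets, and made 9 false calls among 178. These shares do not cover genes of lower counts, or data with as many changes as were called here. Depth limits low values, and count ratios and their intervals cover counting error only.

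The contrast, the gene lists and the naming rule were chosen with earlier results of these data known. The rule named the targets, then, among symbols that are no predicted or clone names whose mean reached 5 CPM, with no overlap in a called set, the largest differences per class and direction (6 for opposite effects, 5 where 1 effect was called, 4 for shared directions, there ranked by the smaller effect when the difference was not called), up to 3 members per list with the smallest adjusted p, and fixed macrophage markers. Some genes are not reported here. Other genes named from lists were chosen after their values were seen. Promoter windows came from a RefSeq table (GRCm38.p6) that held 9503 of the genes tested. Alternatives were DESeq2 (1.42.0), upper-quartile scaling, no filter, a filter at 50 counts, all 16 libraries, a replicate block, glmTreat at 1.5-fold, the X chromosome added, regions within 10 Mb of each target left out, and each library left out in turn.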

Additional observations from a re-analysis of the deposited data

Results flagged for a closer look

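In the 4 TRAP1 KO TCM libraries, 1 library stood apart from the other 3 for 12 of 122 values tested, where chance gives about 1 in 20, or 6.1. These were replicate 4 for Bhlhe41 (51.8 CPM, the others 54.8 to 55.1), Mmp12 (146 CPM, the others 132 to 133), Srebf2 (227 CPM, the others 218 to 219), and Trap1 and Lipg, both at 0 CPM where each of the others held 1 count. Replicate 3 stood apart for Ccl2 (460 CPM, the others 471 to 473), Ednrb (67.8 CPM, the others 70.6 to 71.2), Egln3 (1.38 CPM, the others 1.54 to 1.56) and Irf4 (2.12 CPM, the others 2.83 to 2.97). Replicate 2 did so for Msr1 (1160 CPM, the others 1200.0 to 1210), and replicate 1 for Hsp90b1 (380.0 CPM, the others 393 to 395) and Ighm (13.2 CPM, the others 15.5 to 15.8). No direction or call of these 12 genes' differences changed when the library concerned was left out.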

How the results depend on the processing

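No scaling moved the median effect of all genes by as much as 0.1, and the share of called differences that were higher was 48.7%, or 43.3 to 51.7% elsewhere. Setting aside glmTreat, each alternative kept at least 88.2% of the called differences, and 0 changed sign. With genes of at least 50 counts, 275 higher and 347 lower differences of at least 2-fold were called. Tested against a fold of 1.5 (glmTreat), 380 higher and 452 lower differences were called, 290 of the higher ones at least 2-fold. By class these were 176 and 269 with opposite effects (TRAP1 up and down), 135 and 143 with the TRAP1 effect alone, 18 and 40 with the JMJD3 effect alone (up and down) and 15 and 36 in the same direction, with 715 genes falling in both sets and not called different. In that test 24 mitosis, 13 S phase and 14 cholesterol genes had a called lower difference, and 9 inflammatory genes a higher one. The called majority fell from 11 to 0 in glycolysis, 10 to 0 in macrophage lineage factors and in glutathione genes, 9 to 0 in the respiratory chain, 8 to 0 in chaperones, 22 to 4 in interferon-induced, 10 to 1 in MHC class I, 18 to 2 in lysosomal and 17 to 1 in citrate cycle genes, and 35 of 121 genes followed one by one lost their call. Leaving out 1 library at a time gave 2358 to 2525 higher and 2490 to 2629 lower differences, 446 to 477 and 517 to 543 at least 2-fold, 523 to 589 and 606 to 686 with opposite effects, 695 to 828 and 863 to 1021 with the TRAP1 effect alone, 557 to 702 and 628 to 736 with the JMJD3 effect alone, 159 to 186 and 295 to 337 in the same direction but unequal, and 340 to 393 and 376 to 411 in the same direction and not called. Replicate numbers did not pair the samples (correlations of same-numbered deviations -0.1 to 0.0063), and with a replicate block 2444 higher and 2575 lower differences were called, which changed no call of those 121. Reversals occurred in 4 genes whose differences were not called, 3 of them near 0. The difference of Ifit1bl1 stood at -0.00345 with upper-quartile scaling, at -0.0094 with no filter, and at -0.0485 to 0.0793 with 1 library left out. With 1 library left out the difference of Ptgs1 stood at -0.058 to 0.325 and that of Trem1, 0.58 with all libraries, at -0.0664 to 0.986, both lowest without JMJD3 WT TCM replicate 1, and Tnfsf14 at 0.0116 without WT TCM replicate 2. Igfbp4 was called (-0.10) with upper-quartile scaling and without JMJD3 WT TCM replicate 3. Of 13 checkpoint genes, 3 to 7 had a higher difference over the alternatives other than glmTreat, and minority counts of 1 or 2 genes in a list moved to between 0 and 3, among them S phase (higher, 0 with DESeq2, with a replicate block or without any 1 of 6 libraries), chaperones (higher, 1 without any 1 of WT TCM replicates 1 and 2, JMJD3 WT TCM replicate 2 and JMJD3 cKO TCM replicates 1 and 3), lysosome (higher, 0 without any 1 of WT TCM replicates 2 and 3 and JMJD3 cKO TCM replicate 2), lipid efflux (higher, 1 without WT TCM replicate 1), glutathione (lower, 1 without JMJD3 cKO TCM replicate 2), matrix (lower, 1 without replicate 2 of either JMJD3 group) and immediate-early factors (lower, 2 without any 1 of 6 libraries). The cause of these changes was not tested.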
